A study of Mus musculus with 9 samples.

Results

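The genes of the NF-κB system described here were 5 DNA-binding subunits (Rela, Relb, Rel, Nfkb1 and Nfkb2) and 5 inhibitors (Nfkbia, Nfkbib, Nfkbie, Nfkbiz and Tnfaip3). They were chosen by name, not by their values, and make up 10 of the 55655 rows of the deposited expression tables. All 10 passed the filter on low values, for which 3 or more of the 6 libraries tested had to reach an FPKM of 1, as did 12238 rows in all. FPKM is the number of sequenced fragments per length of transcript and per total of fragments, so it adjusts for both. It does not by itself make libraries fully comparable: the median of all rows still differed between M0 and M1, as described below.

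NF-κB is a family of transcription factors that act as pairs of subunits. In a resting macrophage the pairs are held in the cytoplasm by IκB proteins. When lipopolysaccharide (LPS) of bacteria reaches its receptor TLR4, the IκB kinase complex marks the IκB proteins for destruction, and the released pairs enter the nucleus and switch on cytokine, chemokine and adhesion genes. Among the genes they switch on are those of their own inhibitors, which gives the pathway a negative feedback. The libraries hold RNA levels only. The phosphorylation, processing, breakdown and nuclear entry of these proteins were not measured in these data.

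RNA was sequenced from bone marrow-derived macrophages (BMDMs), grown for 7 days in 10 ng/mL M-CSF from femur and tibia marrow of wild type C57BL/6 mice aged 6 to 8 weeks. There were 3 groups with 3 libraries each. M0 macrophages were neither stimulated nor irradiated, M1 macrophages were induced with LPS and interferon-γ for 12 hours, and M1 + PBM macrophages had the same induction together with photobiomodulation (PBM), an irradiation with near-infrared laser light. The study states that the experiment was repeated independently 3 times, while neither the labels nor its text say whether the libraries of a group came from separate mice, so p-values measure the spread between these libraries.

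The spacing of the low values corresponded to between 30930000 and 42150000 fragments per library, as an estimate, since only 25.9% to 27.3% of those values were whole multiples of 1 fragment (within 0.05 of a fragment, where an even spread would give 10%). With the longest annotated transcript of each gene, at most between 419 and 18616 fragments stood behind a value of the 10 genes, an upper estimate that does not bound the counting error from above. The labels were checked with 2 genes that M1 macrophages express. Nos2, the inducible nitric oxide synthase, was between 0.0133 and 1.79 FPKM in M0, between 112 and 290.0 in M1 and between 65.9 and 88.8 in M1 + PBM. Cd86, a costimulatory receptor, was between 0.715 and 1.35, between 12.4 and 15.9 and between 7.95 and 11.1 FPKM in the same order. The 7 macrophage markers summed to between 5263 and 10143 FPKM in the 9 libraries, most of it Lyz2, at between 3459 and 8773. Those of lymphoid cells reached at most 0.0917, of erythroid cells 0.248 and of dendritic cells 1.10. Neutrophil markers summed to between 1.33 and 28.0 FPKM, most of it S100a8. That gene was between 1.13 and 2.11 FPKM in M0, between 6.90 and 27.2 in M1 and between 4.94 and 14.5 in M1 + PBM. Ly6g and S100a9 were listed at 0 in every library, which does not show whether they were absent or not quantified.

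One M0 library stood apart. M0 replicate 3 had the highest level of the M0 libraries for 10 of 10 members, against 39% of the 13915 rows expressed over the 9 libraries. It was at least 2 times each other M0 library for 5 members (Nfkb2, Nfkbia, Nfkbie, Nfkbiz and Tnfaip3), where this held for 4.48% of all rows, and for 0.812% and 0.826% with replicates 1 and 2 in its place. For 8 members it lay between the other M0 libraries and every M1 library, against 9.33% of rows. The same library held 233 FPKM of Tnf, the inflammatory cytokine, where the others held 16.9 and 14.9. Its Nos2 level, the 1.79 FPKM given above, was the highest of the M0 libraries and below every M1 library. The 4 stromal markers summed to 179 FPKM in it and to 6.60 and 5.33 in the other M0 libraries, and to between 12.4 and 13.7 in M1. Their part in the levels of M0 replicate 3 was not tested. Differences of the members from M0 are therefore given with and without this library.

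The stretch before the start site is shown for 5 members whose RNA levels are described below, to set genes with and without an NF-κB binding motif side by side. RefSeq promoter windows (build GRCm38.p6, 250 bases before to 50 after a start site) were matched by symbol for 7 of the 10 genes, in 10 windows. The 3 without an entry were Relb, Nfkb1 and Nfkbiz. The κB consensus motif, 10 letters long, was searched on both strands, and overlapping matches were merged. It was found in 7 of the 10 windows, counted apart where windows overlap, and in 5 genes (Rel, Nfkb2, Nfkbia, Nfkbie and Tnfaip3). Over all genes it was found in 8.46% of 32851 windows and in 9.55% of the 27025 genes with a window. Each line below gives the 150 bases that end just before the start site, 5′ to 3′ on the strand of the gene, with the matches in capitals.

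Nfkb2, chr19:46304587-46304736, plus strand: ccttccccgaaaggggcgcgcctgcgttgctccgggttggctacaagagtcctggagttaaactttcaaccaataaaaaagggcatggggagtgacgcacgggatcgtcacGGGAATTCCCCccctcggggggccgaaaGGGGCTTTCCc
Nfkbia, chr12:55492648-55492797, minus strand: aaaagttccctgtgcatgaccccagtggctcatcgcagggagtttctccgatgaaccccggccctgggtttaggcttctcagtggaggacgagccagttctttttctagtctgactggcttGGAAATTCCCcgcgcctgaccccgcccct
Nfkbie, chr17:45555550-45555699, plus strand: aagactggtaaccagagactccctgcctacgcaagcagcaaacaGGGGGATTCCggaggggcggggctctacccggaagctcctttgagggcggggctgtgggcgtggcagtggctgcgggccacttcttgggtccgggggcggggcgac
Tnfaip3, chr10:19015411-19015560, minus strand: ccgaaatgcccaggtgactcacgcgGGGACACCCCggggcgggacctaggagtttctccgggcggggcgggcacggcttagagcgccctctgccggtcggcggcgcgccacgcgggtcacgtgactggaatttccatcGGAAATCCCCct
Rela, chr19:5637391-5637540, plus strand: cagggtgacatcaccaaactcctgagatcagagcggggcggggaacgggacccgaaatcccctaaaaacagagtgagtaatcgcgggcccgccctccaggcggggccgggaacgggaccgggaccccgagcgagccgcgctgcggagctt

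Nfkb2 held matches at -39 to -29 and at -11 to -2, counted from the start site, and Tnfaip3 at -125 to -116 and at -12 to -3. In Nfkbia the match lay at -29 to -20, and in Nfkbie at -106 to -97. These lines show 1 start site each. Nfkb2 had 2 further windows, with matches at -236 to -227 and 10 to 19 in one and at -225 to -216 in the other. These 2 windows overlap, and the matches at 10 to 19 and at -225 to -216 are the same bases of the genome. Tnfaip3 had 1 further window, with none. Rela held none in its window. Of the genes not shown, Rel held a match at -92 to -82, and Nfkbib held none in its window. The log2 difference of M1 from M0, given below, was 0.20 for Rel and 1.70 for Nfkbib. Whether matches go with these differences was not tested. A match is a likeness of letters and says nothing about whether a factor was bound there.

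With M1 induction, 8 of the 10 genes were higher in every M1 library than in every M0 library. Rela and Rel were the exceptions. This separation upwards was seen in 15.6% of the 13915 rows. Without M0 replicate 3 all 10 were, against 18.7% of rows. The same 8 genes had a mean at least 2 times that of M0, against 10.2% of rows. Because the M0 libraries were deposited in a table of their own, these differences are a description and were not tested. The median of all rows lay 0.34 lower in M1 than in M0 on the log2(FPKM + 1) scale, so that each difference is also given relative to that shift. Every difference given without M0 replicate 3 is as deposited. It compares with the first value of its gene, not with the one relative to all rows. After median-of-ratios scaling over the 9 libraries, which moved the median of all rows to 0.042, all 10 genes were higher in every M1 library, against 31.6% of rows. No member was lower in every M1 than in every M0 library, as 50.6% of rows were before scaling.

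Among the subunits, Nfkb2 and Relb form the pair of the non-canonical pathway, in which the precursor made by Nfkb2 is processed to the active subunit. Nfkb2 was at 14.1, 11.8 and 30.01 FPKM in the M0 libraries and at 86.8, 120.3 and 100.1 in M1. The lowest M1 library was thus well above the highest M0 library, and the log2 difference of means was 2.50, or 2.83 relative to all rows (2.88 without M0 replicate 3, not relative to them). Relb was at 6.90, 6.40 and 10.1 FPKM in M0 and at 21.3, 18.5 and 18.1 in M1, a log2 difference of 1.22, or 1.56 relative to all rows, and 1.40 without M0 replicate 3. Its groups also stood clear of each other. The ratio of Nfkb2 to Relb within a library, which no scaling of libraries can move, was between 1.85 and 2.96 in M0 and between 4.08 and 6.50 in M1.

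Nfkb1, whose precursor gives the partner subunit of the canonical pair, was at 11.7, 10.4 and 14.0 FPKM in M0 and at 26.2, 27.2 and 27.0 in M1. The M1 libraries lay close together, with a mean of 26.8 ± 0.527 (SD, n = 3), and the log2 difference from M0 was 1.10, or 1.44 relative to all rows, and 1.21 without M0 replicate 3. Rela, the subunit p65 that activates transcription in that pair, was at 19.7, 22.2 and 29.7 FPKM in M0 and at 29.3, 37.0 and 33.7 in M1. The groups overlapped, through M0 replicate 3 and M1 replicate 1. The log2 difference was 0.48 as deposited, 0.82 relative to all rows and 0.64 without M0 replicate 3. Rel, the c-Rel subunit, had the smallest difference of the 10 genes. It was at 10.6, 8.92 and 10.9 FPKM in M0 and at 11.1, 10.6 and 13.7 in M1, groups that overlapped, with a log2 difference of 0.20, or 0.54 relative to all rows, and 0.25 without M0 replicate 3.

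The inhibitors showed larger differences than the subunits in the median, 2.18 against 1.10 on the log2 scale (3.04 and 1.21 without M0 replicate 3), with 5 genes on each side. Both medians of the inhibitors are the values of Nfkbiz, which is counted with them by family name. It encodes a nuclear IκB protein, not one that holds the pairs in the cytoplasm. Nfkbia encodes IκBα, the inhibitor that is destroyed and remade within the NF-κB feedback. It was at 32.7, 27.8 and 163 FPKM in M0 and at 279, 255 and 342 in M1. M0 replicate 3 lay far from the other M0 libraries, at 5.39 times their mean, and below the M1 libraries. The log2 difference of Nfkbia was 2.42 with all M0 libraries, or 2.76 relative to all rows, and 3.22 without that replicate. Tnfaip3 encodes A20, the ubiquitin-editing enzyme that shuts off signalling to the IκB kinase. Its levels were 3.90, 5.06 and 19.3 FPKM in M0 and 43.4, 38.6 and 54.3 in M1. Again M0 replicate 3 stood between the groups, and the log2 difference of Tnfaip3 was 2.44, or 2.78 relative to all rows, and 3.08 without that replicate.

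Nfkbiz encodes IκBζ, a nuclear IκB protein that acts on the transcription of secondary response genes such as Il6. It was at 3.29, 3.94 and 26.2 FPKM in M0 and at 31.4, 27.0 and 58.9 in M1. The groups were separated by less than 1 FPKM, between M0 replicate 3 and M1 replicate 2, and M0 replicate 3 was 7.24 times the mean of the other M0 libraries. The log2 difference was 2.18, or 2.52 relative to all rows, and 3.04 without that replicate. Nfkbie, which encodes IκBε, was at 6.87, 4.76 and 22.1 FPKM in M0 and at 23.1, 34.5 and 31.7 in M1, again a narrow separation. Its log2 difference was 1.58, or 1.92 relative to all rows, and 2.17 without M0 replicate 3. Nfkbib, which encodes IκBβ, was at 7.61, 6.88 and 10.2 FPKM in M0 and at 27.5, 25.7 and 33.7 in M1. Here the M0 libraries lay close to each other, and the log2 difference was 1.70, or 2.04 relative to all rows, and 1.85 without M0 replicate 3.

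**Figure D1:**
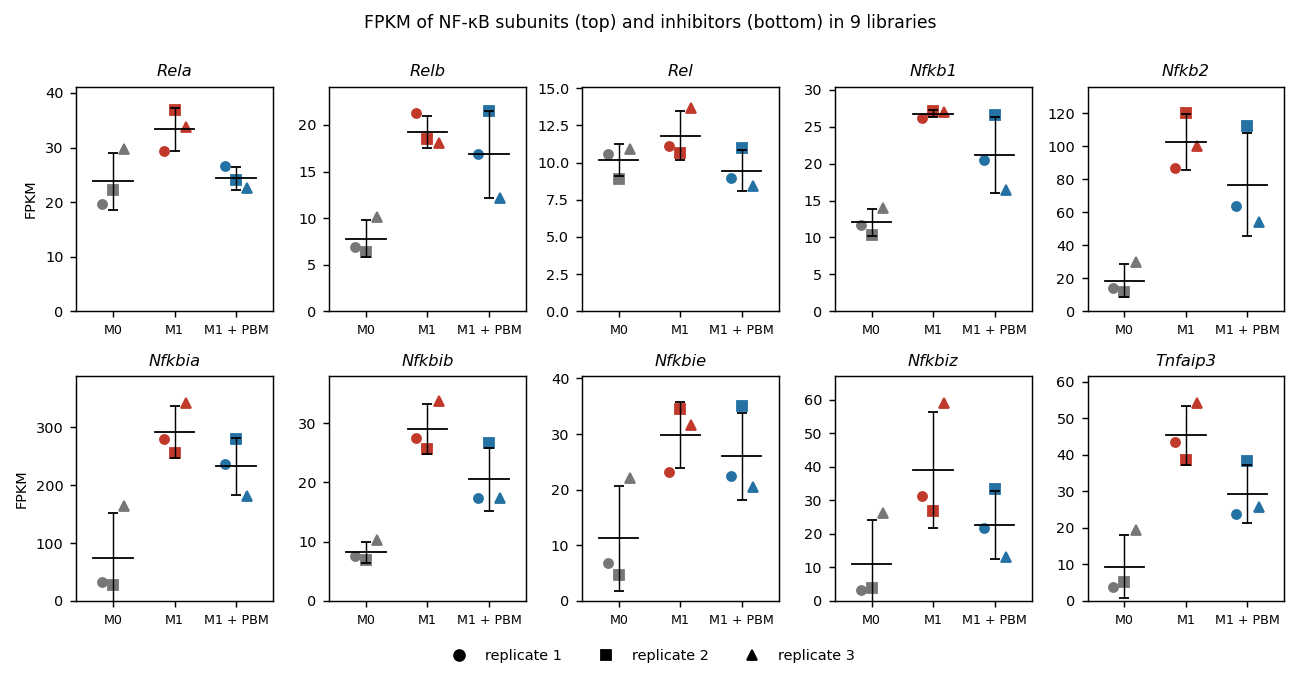
FPKM of the 5 subunits (top row) and the 5 inhibitors (bottom row) in M0, M1 and M1 + PBM macrophages, from 0 on a linear axis of its own for each gene. Each point is 1 library, its shape gives the replicate number, the line is the mean and the bar 1 SD (n = 3, not drawn below 0). Among M0 libraries replicate 3 was the highest in every panel, and among M1 + PBM libraries replicate 2 was the highest in 9 of 10.

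The order of the levels also differed between groups. In M1, Nfkbia was first with a mean of 291.8 ± 44.8 FPKM (SD, n = 3), followed by Nfkb2 with 102.4 ± 16.9 and Tnfaip3 with 45.4 ± 8.06, and no library of one overlapped with those of the next. From Tnfaip3 through Nfkbiz, Rela, Nfkbie and Nfkbib to Nfkb1, each neighbour overlapped with the next. Relb, with 19.3 ± 1.73 FPKM, and Rel, with 11.8 ± 1.65, were last and stood apart from the genes above them. In M0 every neighbour in the order overlapped, from Nfkbia with 74.6 ± 76.7 FPKM down to Relb with 7.81 ± 2.03. The ratio of Nfkbia to Rela within a library was 1.66, 1.25 and 5.49 in the M0 libraries and between 6.90 and 10.1 in M1.

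**Figure D2:**
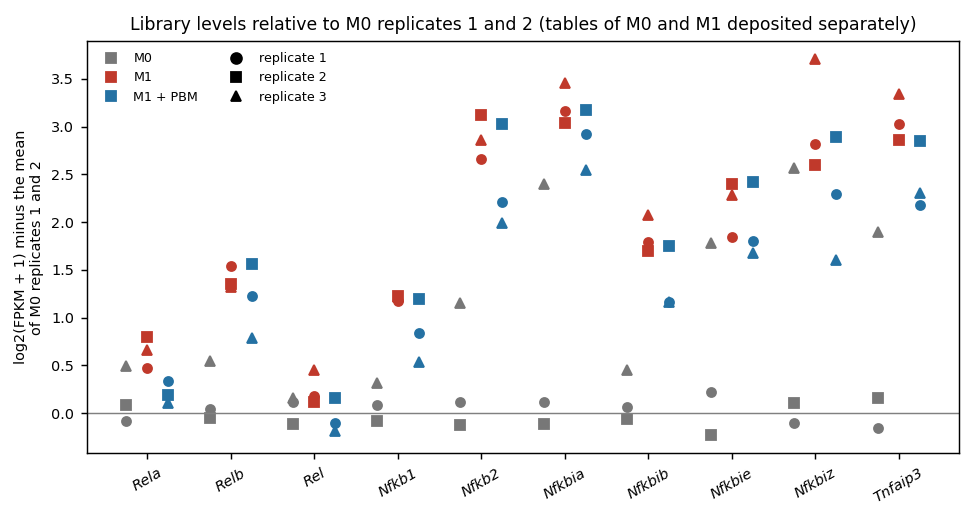
Level of each gene in each of the 9 libraries as a difference in log2(FPKM + 1) from the mean of M0 replicates 1 and 2, in grey for M0, red for M1 and blue for M1 + PBM. M0 replicate 3 (grey triangle) lies near the M1 libraries for Nfkbiz, at 7.24 times the mean FPKM of the other M0 libraries, and near those M0 libraries for Rel.

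The comparison of M1 + PBM with M1 asks how the irradiation changed the RNA of stimulated macrophages. All 10 genes had a lower mean with PBM, where 34.4% of the 12238 rows did. The log2 fold changes lay between -0.21 and -0.78 with a median of -0.39, against a median of 0.058 over all rows. By limma on log2(FPKM + 1), 3 of the 10 were lower at an unadjusted p of at most 0.05 (Rela, Nfkbib and Tnfaip3) and none was higher, while 1.45% of all rows were lower, 2.99% higher and 4.44% either by that rule. None of the 10 passed after Benjamini-Hochberg adjustment over all rows in limma, with adjusted p-values between 0.90 and 0.905, and 1 row of all (0.00817%) did. No member met the combined threshold of an unadjusted p of at most 0.05 and a change of at least 2 times in FPKM + 1, which 0.261% of rows met. The groups did not overlap for 2 members (Rela and Tnfaip3), against 2.52% of rows that were lower without overlap and 8.51% that were higher, which held for no member. In RNA from whole cultures, fewer cells that express a gene and less RNA per cell cannot be told apart.

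Rela was at 29.3, 37.0 and 33.7 FPKM in the M1 libraries and at 26.7, 24.0 and 22.5 in the M1 + PBM libraries. All M1 + PBM libraries were below the lowest M1 library, and Rela was lower in each replicate number. Its log2 fold change was -0.43 (SE 0.12, 95% interval -0.73 to -0.14, unadjusted limma p = 0.0113), and the exact permutation test gave p = 0.1, the smallest that 3 against 3 libraries allow. As deposited, the mean with PBM was 24.4 ± 2.11 FPKM (SD, n = 3). That of M0 was 23.9 ± 5.23, in a table of its own and with replicate 3 at 29.7. These 2 means are not adjusted for the shift between M0 and the other libraries. Their closeness therefore does not show a return to the M0 level.

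The 4 other subunits did not pass the unadjusted threshold. Nfkb2 was at 63.5, 112 and 54.3 FPKM with PBM, against 86.8, 120.3 and 100.1 in M1. Replicates 1 and 3 lay below every M1 library and replicate 2 within their range, which gave a log2 fold change of -0.47 (SE 0.28, 95% interval -1.15 to 0.21). Nfkb1 was at 20.5, 26.6 and 16.4 FPKM with PBM, against 26.2 to 27.2 in M1. As with Nfkb2, only replicate 2 reached the M1 range, and the log2 fold change of Nfkb1 was -0.35 (SE 0.17, 95% interval -0.76 to 0.061). Relb was at 16.9, 21.5 and 12.2 FPKM with PBM, against 18.1 to 21.3 in M1. Its replicate 2 was the highest of the 6 libraries, and its log2 fold change of -0.21 had an interval from -0.70 to 0.27. Rel was at 8.95, 10.998 and 8.41 FPKM with PBM, against 10.6 to 13.7 in M1, with a log2 fold change of -0.29 (95% interval -0.63 to 0.046). These intervals leave room for no difference as well as for a lower level.

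Of the inhibitors, Tnfaip3 and Nfkbib passed the unadjusted threshold. Tnfaip3 was at 23.7, 38.3 and 25.9 FPKM with PBM, against 43.4, 38.6 and 54.3 in M1. The groups did not overlap, but replicate 2 with PBM came within 1 FPKM of replicate 2 of M1. The log2 fold change of Tnfaip3 was -0.63 (SE 0.21, 95% interval -1.14 to -0.12, unadjusted limma p = 0.0231), with an exact permutation p of 0.1. Nfkbib was at 17.5, 26.6 and 17.4 FPKM with PBM, against 27.5, 25.7 and 33.7 in M1. Replicate 2 with PBM lay above the lowest M1 library, and the log2 fold change of Nfkbib was -0.50 (SE 0.20, 95% interval -0.965 to -0.026, limma p = 0.0413 unadjusted and 0.90 adjusted, exact permutation p = 0.2).

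Nfkbiz had the largest fold change and the widest spread. It was at 21.6, 33.2 and 13.0 FPKM with PBM, against 31.4, 27.0 and 58.9 in M1. Replicate 2 was higher with PBM than without, while replicate 3 was 2.10 lower on the log2 scale, and the log2 fold change over all libraries was -0.78 (SE 0.40, 95% interval -1.75 to 0.20). Nfkbia was at 236, 279.9 and 182 FPKM with PBM, against 279, 255 and 342 in M1. Only replicates 1 and 3 lay below the M1 range, and the log2 fold change of Nfkbia was -0.34 (SE 0.19, 95% interval -0.81 to 0.13). Nfkbie was at 22.5, 35.0 and 20.5 FPKM with PBM, against 23.1, 34.5 and 31.7 in M1. Its groups overlapped widely, and its log2 fold change was -0.21 (SE 0.24, 95% interval -0.78 to 0.37).

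**Figure D3:**
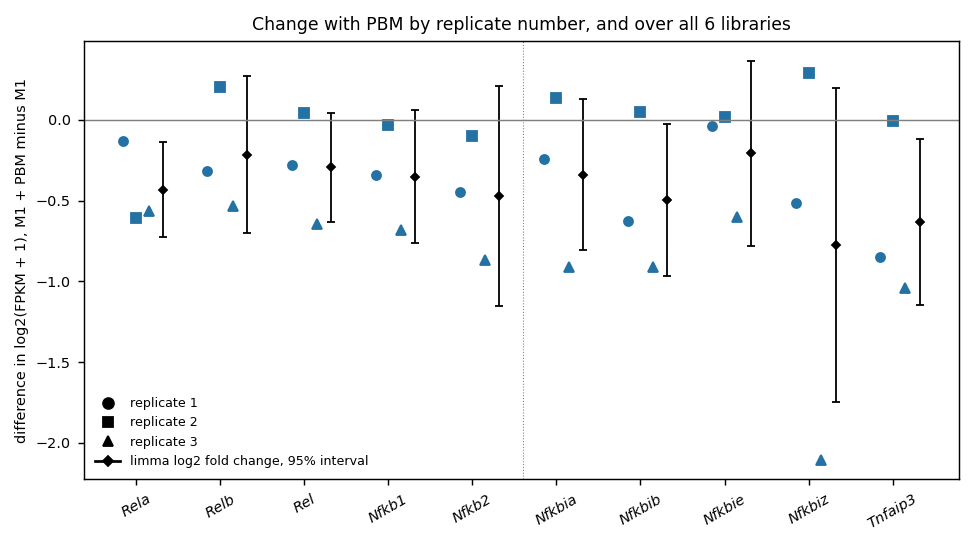
Difference in log2(FPKM + 1) between M1 + PBM and M1 for each gene, by replicate number (blue) and as the limma log2 fold change over all 6 libraries with its 95% interval (black), with subunits left and inhibitors right of the dotted line. All 10 genes were below 0 in replicates 1 and 3, and in replicate 2 Rela was at -0.60 while the other 9 were between -0.097 and 0.29.

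How far the genes differed depended on the replicate. All 10 were lower with PBM in replicate 1 and in replicate 3, which was true of 20.1% of rows, and 4 were lower in replicate 2 (Rela, Nfkb1, Nfkb2 and Tnfaip3). Those 4 were lower in every replicate number, against 10.1% of rows. The median difference over the 10 genes was -0.33, 0.032 and -0.78 on the log2 scale in replicates 1, 2 and 3, where all rows had medians of 0.032, 0.013 and 0.13. Of the M1 + PBM libraries, replicate 2 was the highest for 9 of 10 genes (38.3% of rows) and replicate 3 the lowest for 9 (34.7% of rows). The size of the difference was smallest in replicate 2 for 9 of 10, against 53.1% of rows. The stromal markers summed to 21.3, 6.15 and 25.4 FPKM in M1 + PBM replicates 1, 2 and 3, and their part in these differences was not tested.

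Without M1 + PBM replicate 2, a setting chosen among those that leave out 1 library each, 8 of the 10 genes were lower at an unadjusted p of at most 0.05 in limma, against 2.41% of rows, and their median log2 fold change was -0.50. Relb and Nfkbie did not pass. With replicate 2 left out of both groups, 7 genes passed, against 2.84% of rows, with a median of -0.54, and Rela, at -0.35 with an unadjusted p of 0.0875, was then not among them. Without M1 replicate 3, M1 + PBM replicate 1 or M1 + PBM replicate 3, Rela alone passed, and without M1 replicate 1 it was 2 genes. The median was nearest to 0 without M1 + PBM replicate 3, at -0.24, where Relb was at -0.011 and Nfkbie at -0.062. With the replicate number as a block in the limma fit, 3 genes passed, against 3.24% of rows. These were Rela (unadjusted p = 0.0180), Nfkb2 (0.0350) and Tnfaip3 (0.0358), while Nfkbib was at 0.0575. No member passed after adjustment in limma in any of these settings.

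In M1 + PBM the levels kept their separation from M0 for 6 genes (Relb, Nfkb1, Nfkb2, Nfkbia, Nfkbib and Tnfaip3), which were higher in every M1 + PBM library than in every M0 library, against 15.9% of rows. Without M0 replicate 3 this held for 9 genes, all but Rel, against 19.2% of rows. This comparison shares its M0 libraries with that of M1. Nfkbia with 232.5 ± 49.3 FPKM and Nfkb2 with 76.7 ± 31.2 were again the highest, without overlap, ahead of Tnfaip3 with 29.3 ± 7.89 (SD, n = 3 each), and Rel with 9.46 ± 1.36 was the lowest without overlap. Ratios between members overlapped between M1 and M1 + PBM. Nfkbia to Rela was between 8.06 and 11.7 with PBM and Nfkb2 to Relb between 3.76 and 5.22, against the 6.90 to 10.1 and 4.08 to 6.50 given above for M1. The summed FPKM of the 5 subunits was 137, 195 and 114 in the M1 + PBM libraries and between 175 and 214 in M1. That of the 5 inhibitors was 321, 413 and 258, against 381 to 520.3 in M1. In both sums replicates 1 and 3 lay below every M1 library and replicate 2 within their range.

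Other genes of the pathway were taken from lists that do not hold the 10 genes. Bcl3 and Nfkbid, the remaining nuclear IκB proteins listed, had log2 fold changes with PBM of -0.15 and -0.32 that did not pass, with 95% intervals of -0.72 to 0.43 and -0.73 to 0.090. Nfkbid was at 10.9, 9.23 and 14.9 FPKM in M0 and at 10.3, 6.97 and 8.17 in M1, with overlapping groups, a log2 difference of -0.41 that came to 0.049 after median-of-ratios scaling. Bcl3 was at 5.86, 4.35 and 16.4 FPKM in M0 and at 25.6, 21.3 and 36.6 in M1, without overlap, a log2 difference of 1.71, or 2.21 without M0 replicate 3. Of 11 IκB kinases and their activators, 4 were lower and 7 higher with PBM (34.4% of all rows were lower). None passed in limma at an unadjusted p of at most 0.05 (4.44% of all rows), and their median log2 fold change was 0.042. The smallest p-values of that list belonged to Map3k14, the kinase NIK of the non-canonical pathway, at 0.28 (95% interval -0.17 to 0.74), and Tab1, a partner of the kinase TAK1, at 0.16 (95% interval -0.12 to 0.44). In the same list 4 of 11 genes were higher in every M1 than in every M0 library, against the 15.6% of rows given above. In every M1 library 2 were lower, against 50.6% of rows. After median-of-ratios scaling 7 were higher, against 31.6% of rows, and 0 lower, for which the share of all rows was not computed.

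Of 20 genes of LPS and TNF receptor signalling, 13 had a lower and 7 a higher mean with PBM (34.4% of all rows were lower). Their median log2 fold change was -0.074. Ly96, the coreceptor MD-2 of TLR4, was at 8.77, 9.50 and 8.78 FPKM with PBM against 11.8, 11.9 and 9.73 in M1. It was the 1 gene of the list past the unadjusted threshold, with a log2 fold change of -0.27 (SE 0.11, limma p = 0.0418 unadjusted and 0.90 adjusted, exact permutation p = 0.1), and fell short of it without any one of 5 of the 6 libraries. For a list of 20, 1 such gene is near the share of all rows that passed in either direction, 4.44%. Cd14, which hands LPS to that receptor, had a log2 fold change of -0.33 (95% interval -0.67 to 0.0037) and an unadjusted limma p just above the threshold, 0.0519. It passed with median-of-ratios scaling (0.0381), without the eBayes trend (0.0458), without M1 + PBM replicate 2 (0.00995) and with replicate 2 left out of both groups (0.0174). Of 13 partners of A20 and ubiquitin-editing proteins, 8 were lower (34.4% of all rows), none passed (4.44% of all rows), and the median was -0.15. The smallest p-values there belonged to Traf1, which is also listed among the NF-κB target genes, at -0.56 (95% interval -1.28 to 0.17), and Otud7b, at -0.20 (95% interval -0.51 to 0.10).

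Among these lists the largest fold changes belonged to the target genes. Of 27 NF-κB target genes, 26 were lower with PBM (34.4% of all rows) and 10 passed as lower in limma at an unadjusted p of at most 0.05 (1.45% of all rows), and the median of their log2 fold changes was -0.56. The 10 were Il6, Il1a, Il1b, Cxcl1, Cxcl2, Cxcl3, Ccl3, Ccl4, Nos2 and Ptgs2, which encode cytokines, chemokines, the inducible nitric oxide synthase and cyclooxygenase-2. With the replicate block 12 passed (3.24% of rows), without M1 + PBM replicate 2 it was 16 (2.41%), and with replicate 2 left out of both groups 14 (2.84%). Ccl4, at 0.0487, had an unadjusted limma p of 0.0694 with the block, and fell short also with median-of-ratios scaling, quantile normalization and both other filters on low values. Some of the 10 were singled out by the study on these libraries, so their direction is no independent evidence. Il6, with the smallest p of the list, was at 3.40, 7.30 and 1.20 FPKM with PBM against 21.7, 14.9 and 25.3 in M1, a log2 fold change of -2.29 (SE 0.47, limma p = 0.00231 unadjusted and 0.90 adjusted, exact permutation p = 0.1). All 10 were lower by at least 1 on the log2 scale, a size that no NF-κB subunit or inhibitor reached with all 6 libraries. Nfkbiz reached it without M1 + PBM replicate 2 (-1.09) and with replicate 2 left out of both groups (-1.31), and Ccl4 lay above it with quantile normalization (-0.94). As among the members, M1 + PBM replicate 2 was the highest M1 + PBM library for most of these genes, 22 of 27 (38.3% of all rows). With M1 induction 24 of the 27 targets were higher in every M1 than in every M0 library (15.6% of rows), and M0 replicate 3 was at least 2 times each other M0 library for 21 (4.48% of rows). Without that library all 27 were higher in every M1 library, against 18.7% of rows.

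**Figure D4:**
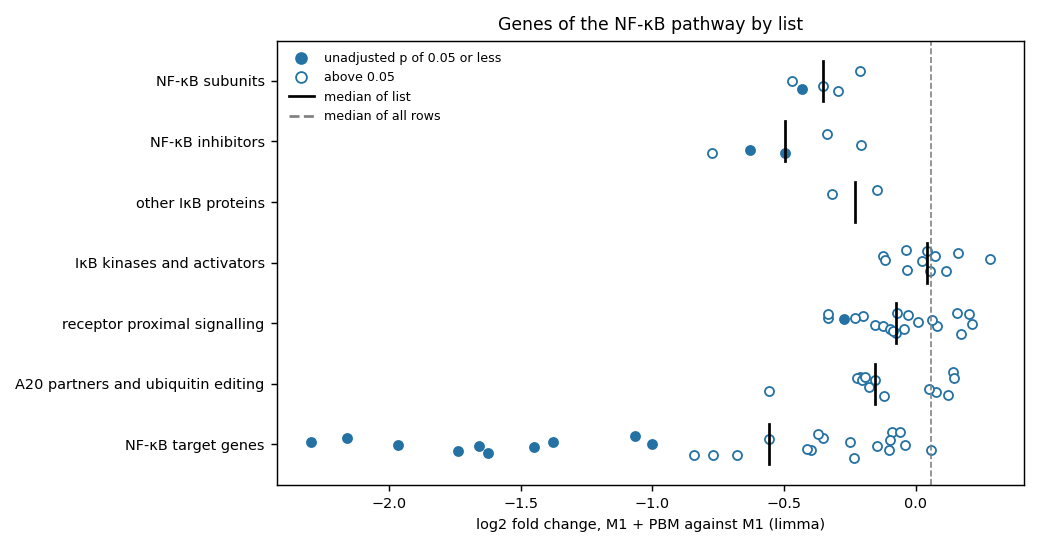
Log2 fold change of M1 + PBM against M1 (limma) for each tested gene of the NF-κB lists, 1 point a gene, filled at an unadjusted p of 0.05 or less, with the list's median as a black line and the median of all rows, 0.058, as a dashed line. The 5 subunits and 5 inhibitors all lie below 0, the 11 kinases and activators lie around it, and the target genes reach -2.29.

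Rows with the most similar pattern were sought for each member over the 9 libraries and 13915 rows, by the root mean square difference of log2(FPKM + 1) after subtracting each row's mean. The points share their libraries, so these values are a description. Nfkbia and Tnfaip3 were each other's nearest row, with a difference of 0.26 on the log2 scale, and Tnfaip3 was also the row nearest to Nfkbiz (0.36), followed by Nlrp3 (0.37). The second row was Serpina3g for Nfkbia (0.26) and Pde4b for Tnfaip3 (0.27). Nfkb2 was nearest to Gch1 (0.20) and Nod2 (0.21), and Relb to Abracl and Mapkapk2 (0.13 each). Nfkb1 was nearest to Denr (0.11) and Gm22151 (0.12), and Nfkbib to Abtb2 (0.12) and an unnamed assembled locus (0.13). Nfkbie was nearest to Atp10a and Gm20234 (0.20 each). For the genes with the flattest profiles, Rela was nearest to Tmem11 (0.12) and Spata5l1 (0.14), and Rel to Ccdc167 (0.078) and Wsb1 (0.088).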

How the data were processed

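The authors deposited FPKM values, made by a sequencing service from Illumina HiSeq reads, in 2 tables of 55655 rows, 1 for M0 and 1 for the other 6 libraries. Their methods name Cufflinks for expression values, and the submitters' processing notes name Bowtie 0.12.2 and mm9 without giving their roles. The deposited rows include 320 assembled loci. FPKM is not a count, and whole reads could not be recovered, so no count test was run. Replicates were taken from the labels.

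For M1 + PBM against M1, limma 3.58.1 in R 4.3.3 (lmFit, eBayes with trend) was fitted to log2(FPKM + 1) over the 12238 rows that reached an FPKM of 1 in 3 or more of the 6 libraries, with two-sided tests and Benjamini-Hochberg adjustment over all rows. A fold change on this scale understates that of low genes. M0, deposited in its own table, was described only. Deviations from the group means correlated between same-numbered M1 and M1 + PBM libraries (r = 0.157, 0.469 and 0.462, across genes). For other numbers r was between -0.491 and 0.033, values that centring on the group means lowers. The numbers may thus pair the samples, least clearly in replicate 1, and fits with a replicate block are reported as well. The p-values, SEs and intervals given are from the fit without a block unless the block is named. Alternatives were another pseudocount, filter, scaling and variance model, the block, and leaving out each library. The genes, lists and tests were chosen with earlier results of these data known. Named genes were the 10 members, the 2 genes of each list with the smallest p, every list gene with an unadjusted p of at most 0.05, and, per member, the nearest rows. Promoter windows came from RefSeq and another build than mm9, and were matched by symbol.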

Additional observations from a re-analysis of the deposited data

How the results depend on the processing

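All 10 members kept a lower mean with PBM in each of the 14 alternatives to the fit. The number past an unadjusted p of 0.05 was 3 in the fit and in the 7 alternatives that changed the pseudocount, filter, scaling, variance model or replicate block, lay between 1 and 8 when 1 library was left out, and was 7 without replicate 2 in both groups, which was added after seeing the data. Over all rows, 543 passed in the fit, 1318 with no minimum FPKM, 233 with a mean FPKM of at least 5, 988 with the replicate block, between 259 and 1089 without 1 library and 1023 without replicate 2 in both groups. Scaling moved the direction of these calls, from 32.6% lower in the fit to 54.4% after median-of-ratios scaling (283 lower, 237 higher) and 49.4% after quantile normalization, and moved the median of all rows from 0.058 to -0.0053. The median of the IκB kinases was -0.037, 0.022 and 0.0023 with median-of-ratios scaling, quantile normalization and replicate 2 left out of both groups, and between -0.00020 and 0.070 without 1 library. That of the A20 partners was -0.22 with median-of-ratios scaling and between -0.22 and 0.057 without 1 library. Bcl3 lay between -0.32 and 0.063 without 1 library, the latter without M1 replicate 3. The block moved Nfkb2 past the threshold and Nfkbib short of it, and changed no other call among the members. The cause of these shifts was not tested. The median over the members was -0.39 in the fit and between -0.24 (without M1 + PBM replicate 3) and -0.50 (without M1 + PBM replicate 2) when 1 library was left out. Depth is known only as an estimate, and the fragments behind a value only as an upper estimate, so how far counting error limits these values was not settled. The number of libraries, 3 a group, limits the precision.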
